A study of Mus musculus with 8 samples.

Results

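The paralog pair Rpl22 and Rpl22l1 was followed through 8 mouse tumour libraries. The 2 genes were taken by symbol, matched to their Ensembl identifiers among the 41214 in the count files, and both passed the filter on low counts that left 16456 tested genes. Messenger RNA had been sequenced from spleen tumours of mice of the strain C57Bl6, labelled as tumours of B cells or of CD4+ T cells, with the Miz1 genotype given as wt or as deltaPOZ, a form without the POZ domain through which Miz1 molecules associate. Both genotypes of both lineages were represented by 2 libraries, each from a different mouse, so n = 2 for each group mean and SD. The labels give neither the age of the mice nor the promoter or recombinase behind the deltaPOZ allele. The names of the deposited tables carry a Notch tag for all 4 T libraries. They carry an ENU tag for the T deltaPOZ libraries alone, and neither tag is explained. In T whatever ENU stands for and the genotype thus cannot be told apart. Further tags in these names, also unexplained, differ between the B and T libraries.

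Rpl22 encodes a protein of the large ribosomal subunit that also binds RNA, and ribosomes can form without it. Rpl22l1 encodes a close relative that can take its place in the ribosome. In mice Rpl22 protein is known to bind the Rpl22l1 transcript and to lower its level, so that loss of Rpl22 is accompanied by more Rpl22l1. Loss of Rpl22 in mice is also known to stop the development of alpha-beta T cells through p53, and in T cell lymphoma it has been linked to induction of the stem cell factor Lin28b. Miz1, the zinc finger protein encoded by Zbtb17, has been reported to bind the Rpl22 promoter in developing lymphocytes, which made Rpl22 the member with a stated link to the genotype.

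Rpl22 (ENSMUSG00000028936) lies on the plus strand of chromosome 4 at 152325742 to 152334071 in GRCm38, and its coding transcript Rpl22-201 has 474 bases and codes for 128 residues. Rpl22l1 (ENSMUSG00000039221) lies on the plus strand of chromosome 3 at 28805436 to 28807424, and Rpl22l1-201 has 552 bases and codes for 122 residues. Of 122 aligned residues 90 were identical (73.8%), and of 366 aligned coding bases 252 were identical (68.9%). The stretch of 150 coding bases in which the paralogs are most alike is printed because reads have to be told apart there. It covers coding bases 214 to 363 of Rpl22 and 196 to 345 of Rpl22l1 in the GENCODE M21 transcripts, and capitals mark the 34 bases that differ.
Rpl22: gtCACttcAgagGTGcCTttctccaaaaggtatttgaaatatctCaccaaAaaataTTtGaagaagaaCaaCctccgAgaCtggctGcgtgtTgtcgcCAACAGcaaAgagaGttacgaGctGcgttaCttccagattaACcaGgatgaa
Rpl22l1: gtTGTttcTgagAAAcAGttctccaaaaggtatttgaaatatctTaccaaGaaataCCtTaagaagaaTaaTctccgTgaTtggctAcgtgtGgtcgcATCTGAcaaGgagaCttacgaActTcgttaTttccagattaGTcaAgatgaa
The longest run of bases shared by both coding sequences was 26. Processed pseudogenes hold closer copies. Gm15421 is 99.5% identical to the Rpl22l1 coding sequence over 369 bases, and Rpl22-ps1 is 93.5% identical to that of Rpl22. All pseudogenes in the count files that resemble Rpl22 together carried 0.181 to 0.358% as many counts as Rpl22 in a library, and those that resemble Rpl22l1 carried 0.349 to 0.715% as many as Rpl22l1. How many reads fit both a gene and its copy was not computed, so these percentages do not show how many went uncounted. An antisense gene, Gm33051, overlaps the end of Rpl22l1, and since the strand setting of the counting is not given in the sources used here, reads from it cannot be told apart from those of Rpl22l1.

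The Rpl22 promoter is printed because the study removed a domain of a factor reported to bind it. The stretch holds the 250 bases before the start of Rpl22-201 (chr4:152325603-152325852), joined from the RefSeq promoter table (GRCm38.p6) and the first exon of a noncoding Rpl22 transcript of GENCODE M21, whose 34 shared bases matched. Capitals mark a motif match.
Rpl22 promoter: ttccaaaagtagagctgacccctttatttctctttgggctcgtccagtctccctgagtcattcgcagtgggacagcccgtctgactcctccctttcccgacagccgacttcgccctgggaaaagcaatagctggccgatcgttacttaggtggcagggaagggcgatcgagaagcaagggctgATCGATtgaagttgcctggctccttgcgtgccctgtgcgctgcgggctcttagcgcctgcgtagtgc
Both strands of this stretch and of the 250 bases before the RefSeq start of Rpl22l1 (chr3:28805258-28805507) were searched for ATCGAT and ATCGGT, short sequences reported for Miz1, for CACGTG (the E-box bound by Myc), TATAAA (the TATA box) and CCGGAA (a core of ETS factors). Rpl22 had 1 match, ATCGAT at 152325786 to 152325791, whose first base lies 67 bases before the transcript start. Among 32851 RefSeq promoters of 250 bases 0.728% held ATCGAT, against 1.96% for ATCGGT, 6.02% for CACGTG and 12.0% for CCGGAA. The 250 bases before the nearest RefSeq start of Rpl22, upstream of the coding transcript, held none of the 5 motifs, and the stretch printed here was searched after that. Rpl22l1 had a pair of overlapping TATAAA matches, 1 on each strand, a motif found in 12.4% of promoters. They begin 32 and 28 bases before the RefSeq start, which lies after the start of Rpl22l1-201. Both matches thus fall within the first exon of that transcript (28805436 to 28805543). The 2 stretches were anchored differently, that of Rpl22 to its coding transcript and that of Rpl22l1 to a RefSeq start.

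The libraries held 44330101 to 58271208 gene counts, and levels are given in CPM, which scales counts to sequencing depth (here the tested genes only, with trimmed mean of M values factors). B cell markers summed to 1448 to 2335 CPM in the B libraries and 16.9 to 97.7 in T, while T cell markers summed to 1598 to 2202 CPM in T and 91.1 to 213 in B. Some libraries stood apart: neutrophil and macrophage markers summed to 1217 CPM in B wt 2 and to 82.7 to 206 in its fellow B libraries, and erythroid markers to 193 in B deltaPOZ 2 against 3.71 to 10.7. In T, erythroid markers summed to 3064 to 15897 CPM, neutrophil and macrophage markers reached 605 CPM in T wt 1, and T deltaPOZ 2 had 25387 genes with a count against 18339 to 21078 in the other 7. Xist stood at 975 and 1477 CPM in wt B tumours and at 0.936 and 0.757 in deltaPOZ ones, and in T at 1246 in T wt 1 against 11.8 to 35.4 in the others, so sex follows genotype in B. Zbtb17 was counted at 66.1 and 48.0 CPM in wt B tumours against 49.4 and 59.1 in deltaPOZ ones, and at 49.6 and 42.3 in wt T tumours against 40.1 and 36.9 in deltaPOZ ones. A count over the whole gene does not show whether the part coding for the POZ domain is missing.

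Rpl22 was lower in deltaPOZ than in wt tumours of both lineages. Its level was 787 and 646 CPM in wt B tumours, against 389 and 440 CPM in deltaPOZ ones. In T it was 433 and 527 CPM in wt and 341 and 319 CPM in deltaPOZ. Neither deltaPOZ library reached the lower wt library of its lineage, with means of 717 ± 99.6 against 415 ± 36.6 CPM in B and 480 ± 66.3 against 330 ± 15.7 CPM in T (wt against deltaPOZ, ± SD, n = 2). From the highest to the lowest mean the groups stood in the order B wt, T wt, deltaPOZ B and deltaPOZ T. The middle 2 overlapped, since T wt 1 lay below B deltaPOZ 2. The log2 fold change, deltaPOZ minus wt, was -0.79 in B (SE 0.19, edgeR adjusted p = 0.252), -0.54 in T (SE 0.19, edgeR adjusted p = 1) and -0.66 averaged over both (SE 0.13, edgeR adjusted p = 0.319), a level 0.631 times that of wt. None of the 3 passed an adjusted p of 0.05.

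**Figure D1:**
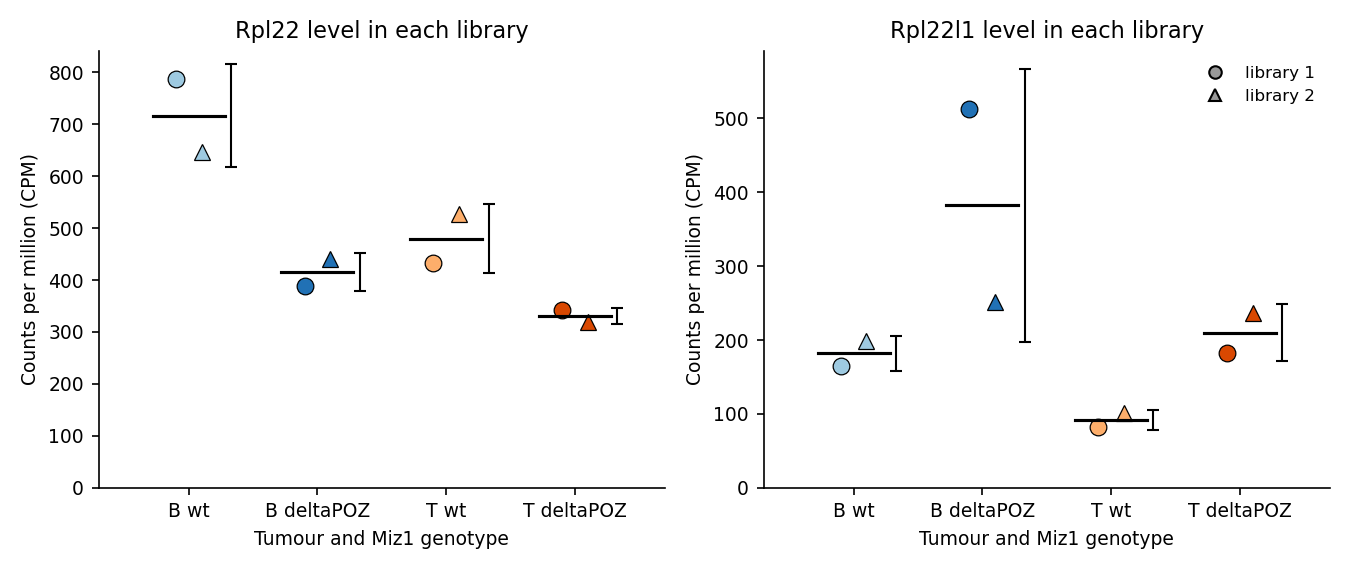
Level of Rpl22 (left) and Rpl22l1 (right) in CPM in each of the 8 libraries, by tumour and Miz1 genotype; circles are library 1 and triangles library 2 of a group, lines are group means and bars their SD (n = 2). In each lineage both deltaPOZ libraries lie below both wt libraries for Rpl22 and above them for Rpl22l1, with B deltaPOZ 1 at 513 CPM of Rpl22l1 the highest.

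Rpl22l1 was higher in deltaPOZ than in wt tumours of both lineages. It was counted at 165 and 199 CPM in wt B tumours, against 513 and 252 CPM in deltaPOZ ones. In T it was counted at 81.8 and 101 CPM in wt and at 183 and 237 CPM in deltaPOZ. Every deltaPOZ library lay above both wt libraries of its lineage, and the spread was largest in B deltaPOZ (382 ± 185 CPM, n = 2), where library 1 stood far above library 2. The other means were 182 ± 24.2 in B wt, 91.3 ± 13.5 in T wt and 210 ± 38.6 CPM in T deltaPOZ. In the order of means, B deltaPOZ, T deltaPOZ, B wt, T wt, the middle 2 overlapped. The log2 fold change was 1.07 in B (SE 0.35, edgeR adjusted p = 0.330), 1.20 in T (SE 0.35, edgeR adjusted p = 1) and 1.14 averaged (SE 0.24, edgeR adjusted p = 0.380), a level 2.20 times that of wt. Without B deltaPOZ 1 the value in B was 0.52. In that library the 18 expressed neighbours of Rpl22l1 were also higher, by a median of 0.44 on the log2 scale against the mean of the B libraries.

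How these values stood among all genes was as follows. edgeR called 1 of 16456 genes in B (0.00608%), 0 in T (0%) and 0 in the average (0%), with unadjusted p under 0.05 for 1996, 436 and 1464 genes. In the average 80 genes had a smaller edgeR p than Rpl22 and 107 a smaller one than Rpl22l1. DESeq2 called 295 of the 14243 genes it gave an adjusted p (2.07%), both members among them, with DESeq2 adjusted p = 0.0248 for Rpl22 and 0.00838 for Rpl22l1. limma-voom called 0 genes in the average and in T and 6 in B, neither member among them. Without B wt 2, T wt 1 and T deltaPOZ 2 the averages were -0.78 for Rpl22 and 1.02 for Rpl22l1 (edgeR adjusted p = 0.750 and 0.773). edgeR without the filter on low counts called 1324 of 27639 genes in B (4.79%), 254 in T (0.919%) and 886 in the average (3.21%). Those included Rpl22 and Rpl22l1 in B and in the average and Rpl22l1 in T, but that fit gave genes of a given level 1 shared spread in place of their own. Counting libraries without a model, Rpl22 was 1 of 727 genes (4.42%) that were lower in deltaPOZ in both lineages with no overlap, and Rpl22l1 was 1 of 593 genes (3.60%) that were higher in this way.

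A difference of the deltaPOZ effect between the lineages did not pass the test for either gene. The effect in T minus that in B was 0.25 for Rpl22 (SE 0.26, edgeR adjusted p = 0.922) and 0.13 for Rpl22l1 (SE 0.48, edgeR adjusted p = 1). edgeR called 0 of 16456 genes for this difference (0%), with unadjusted p under 0.05 for 1030, while DESeq2 called 226 and limma-voom 0. With 2 libraries a group these errors leave room for a lineage difference of the size of the effects themselves.

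The ratio of the paralogs sets them against each other within a library, where depth and scaling cancel. For each Rpl22 count there were 0.209 and 0.308 Rpl22l1 counts in wt B tumours, and 1.32 and 0.572 in deltaPOZ ones. In T there were 0.189 and 0.192 in wt, and 0.535 and 0.743 in deltaPOZ. In B deltaPOZ 1 Rpl22l1 had more counts than Rpl22, and it did so in no other library. Per kilobase of the coding transcripts each ratio is 0.859 times as large, and per kilobase of all annotated exons 1.46 times as large, so whether Rpl22l1 exceeded Rpl22 in T deltaPOZ 2 depends on the length used. The ratio was 3.42-fold higher in deltaPOZ than in wt in B, 3.31-fold in T and 3.37-fold in the average (1.77, 1.73 and 1.75 on the log2 scale), against a pooled SD between libraries of 0.50. An exact two-sided permutation test that reassigned genotypes within each lineage gave p = 0.0556 for the average, the smallest its 36 arrangements allow, and 0.222 adjusted over 4 comparisons of the ratio. In B or T alone the exact permutation p was 0.333, again the smallest possible. Without B deltaPOZ 1 the log2 value in B was 1.17, and without B deltaPOZ 2 it was 2.38. Without B wt 2, T wt 1 and T deltaPOZ 2 the average was 1.77.

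**Figure D2:**
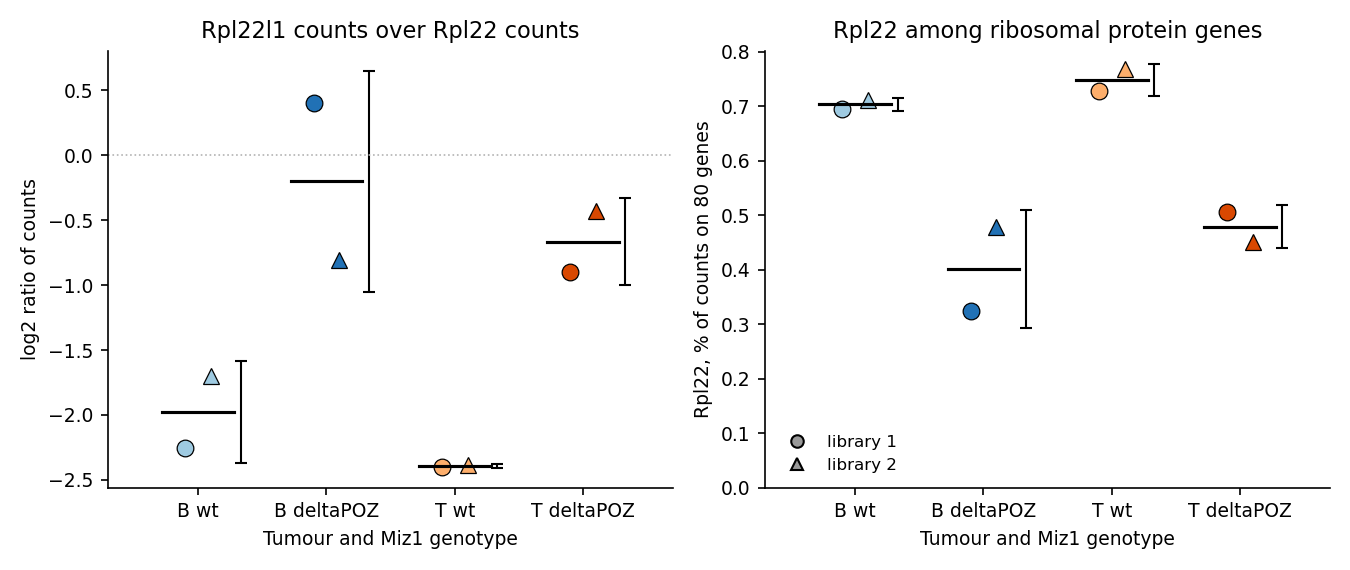
Left, log2 of Rpl22l1 counts over Rpl22 counts in each library; right, Rpl22 as a percent of the counts on 80 cytosolic ribosomal protein genes; circles are library 1 and triangles library 2, lines are group means and bars their SD (n = 2). The deltaPOZ libraries lie above wt on the left and below wt on the right in both lineages, and only B deltaPOZ 1 lies above equal counts (log2 ratio of 0).

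The summed level of the pair differed less between genotypes than either member. Per kilobase of the coding transcripts, Rpl22 and Rpl22l1 together came to 1959 and 1724 CPM in wt B tumours against 1749 and 1386 in deltaPOZ ones, and to 1062 and 1294 in wt T tumours against 1051 and 1103 in deltaPOZ ones. The groups overlapped in both lineages. The mean difference on the log2 scale was -0.24 in B and -0.12 in T, against a pooled SD of 0.17. Per kilobase of all annotated exons it was -0.03 in B and 0.06 in T (pooled SD 0.21), with the groups again overlapping, so the direction in T depends on the length used.

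Rpl22 stood below the other genes of the cytosolic ribosome in the deltaPOZ comparisons. These 80 genes code for the proteins of both subunits and are mostly made in balance. They took 10.5 and 9.21% of gene counts in wt B tumours against 11.4 and 9.08% in deltaPOZ ones, and 6.47 and 6.62% in wt T tumours against 6.96 and 7.33% in deltaPOZ ones. Within those counts Rpl22 held 0.695 and 0.712% in wt B tumours against 0.325 and 0.479% in deltaPOZ ones, and 0.728 and 0.769% in wt T tumours against 0.507 and 0.451% in deltaPOZ ones. By this measure the 4 wt libraries of both lineages lay close together, and all 4 deltaPOZ libraries lay below them. In the average over lineages Rpl22 had the lowest log2 fold change and the smallest p of the 80, and the other 79 ran from -0.24 (Rps7) to 0.36 (Rpl34), with a median of 0.08, where the median over all tested genes was -0.0027.

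In B the other 79 ran from -0.53 (Rps7) to 0.57 (Rpl11) with a median of 0.04, and in T from -0.06 (Rpl30) to 0.47 (Rpl15) with a median of 0.11. In both Rpl22 was again the lowest of the 80, although without B deltaPOZ 1 it was the second lowest in B. Of the 80, edgeR called 0 in B, 0 in T and 0 in the average. Unadjusted p was under 0.05 for 2, 1 and 1, against 12.1, 2.65 and 8.90% of all tested genes. DESeq2 called 1 of the 80, Rpl22, in the average, where it called 2.07% of all genes. Next to Rpl22 by p in the average stood Rpl11, Rpl15, Rpl34 and Rps28, all higher in deltaPOZ (0.21 to 0.36). Rpl11, whose free protein binds Mdm2, was counted at 1020 and 891 CPM in wt B tumours against 1499 and 1329 in deltaPOZ ones, with no such gap in T (750 and 829 against 746 and 830). It lies on chromosome 4, as Rpl22 does.

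**Figure D3:**
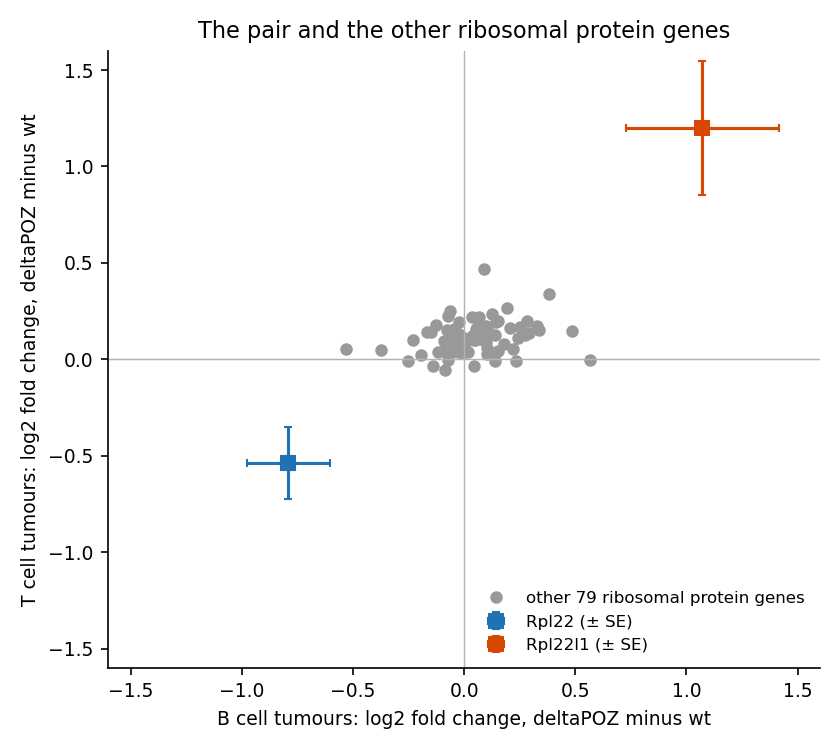
log2 fold change, deltaPOZ minus wt, in B (x axis) and in T (y axis) for Rpl22, Rpl22l1 and the other 79 cytosolic ribosomal protein genes; error bars are the SE from edgeR. Rpl22 (-0.79, -0.54) lies below and to the left of the grey cloud, and Rpl22l1 (1.07, 1.20) above and to the right of it.

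Among further paralogs of ribosomal proteins, those above 1 CPM differed less between deltaPOZ and wt. Of 7 further paralogs 5 were tested, and edgeR called 0 of them in B, T or the average, with 0 at an unadjusted p under 0.05, while DESeq2 and limma-voom also called 0. The 3 with a mean of at least 1 CPM were Rps27l, a target of p53, Rpl7l1 and Rpl36al, with averages of 0.15, 0.09 and -0.09. The other two tested, Rpl3l (mean of 0.459 CPM) and Rps4l (0.495 CPM), gave averages of -1.81 (SE 1.32) and -0.55 (SE 1.25). The fold change of Rpl3l was larger in size than that of Rpl22 or Rpl22l1 (edgeR unadjusted p = 0.214). For the 3 above 1 CPM, the ratios to the genes they are named after (Rps27, Rpl7 and Rpl36a) differed between deltaPOZ and wt by 0.00, 0.05 and -0.10 on the log2 scale in the average, and the groups overlapped in both lineages for all 3, where the Rpl22 pair gave 1.75 without overlap.

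As a set, the genes around Rpl22 on chromosome 4 with a mean of at least 10 CPM did not share its lower level. Within 5 Mb 76 tested genes had a mean of at least 10 CPM. In B 69 of them were higher in deltaPOZ, against 48.1% of all tested genes, with a median of 0.68. Unadjusted p was under 0.05 for 43, against 12.1% of all tested genes, and edgeR called none of them. Rpl22 (-0.79) thus lay 1.47 below the median of its neighbours, a gap made in part by their own higher level. In B 2 of the 76 were lower than Rpl22. In T the median was 0.02, and 1 of the 76 was lower than Rpl22. In the average none of the 76 was. Among the nearest tested genes were Icmt before it, which codes for a protein methyltransferase (0.44 in B, -0.20 in T), and Kcnab2 after it, which codes for a potassium channel subunit (1.30 in B, 0.49 in T). Chd5, directly after Rpl22, had a mean of 0.402 CPM and is not among the 76. It gave 0.02 in B, -1.70 in T (SE 0.94) and -0.84 in the average (SE 0.66). Also below 10 CPM, Gpr153 gave 0.85 in T and 2.20 in the average, and Gm16334 -0.63 and 0.56. Library by library, each gene was set against its lineage mean on the log2 scale. Rpl22 then stood above its neighbours in all 4 wt libraries (by 0.89, 0.53, 0.20 and 0.30). It stood below them in all 4 deltaPOZ libraries (by -0.75, -0.68, -0.31 and -0.24). Within a lineage such values nearly balance by construction, so they restate the fold changes and are no separate test. The cause of the higher level of the neighbours in B deltaPOZ was not tested.

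Around Rpl22l1 on chromosome 3 there were 18 such genes, with a median of 0.25 in B, 0.11 in T and 0.18 in the average. In T none of the 18 was higher than Rpl22l1, and in B and in the average 1 was. The nearest were Eif5a2, a translation factor gene (-0.27 in B, -0.01 in T), and Tnik, a kinase gene (-0.20 in B, -0.93 in T). Against its neighbours Rpl22l1 stood at -0.52 and -0.20 in wt B tumours against 0.57 and 0.12 in deltaPOZ ones, and at -0.70 and -0.40 in wt T tumours against 0.55 and 0.56 in deltaPOZ ones. The gap between B deltaPOZ 1 and B deltaPOZ 2 was thus smaller on this scale (0.57 and 0.12) than in the level itself (1.01 and -0.02 against the mean of the B libraries).

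**Figure D4:**
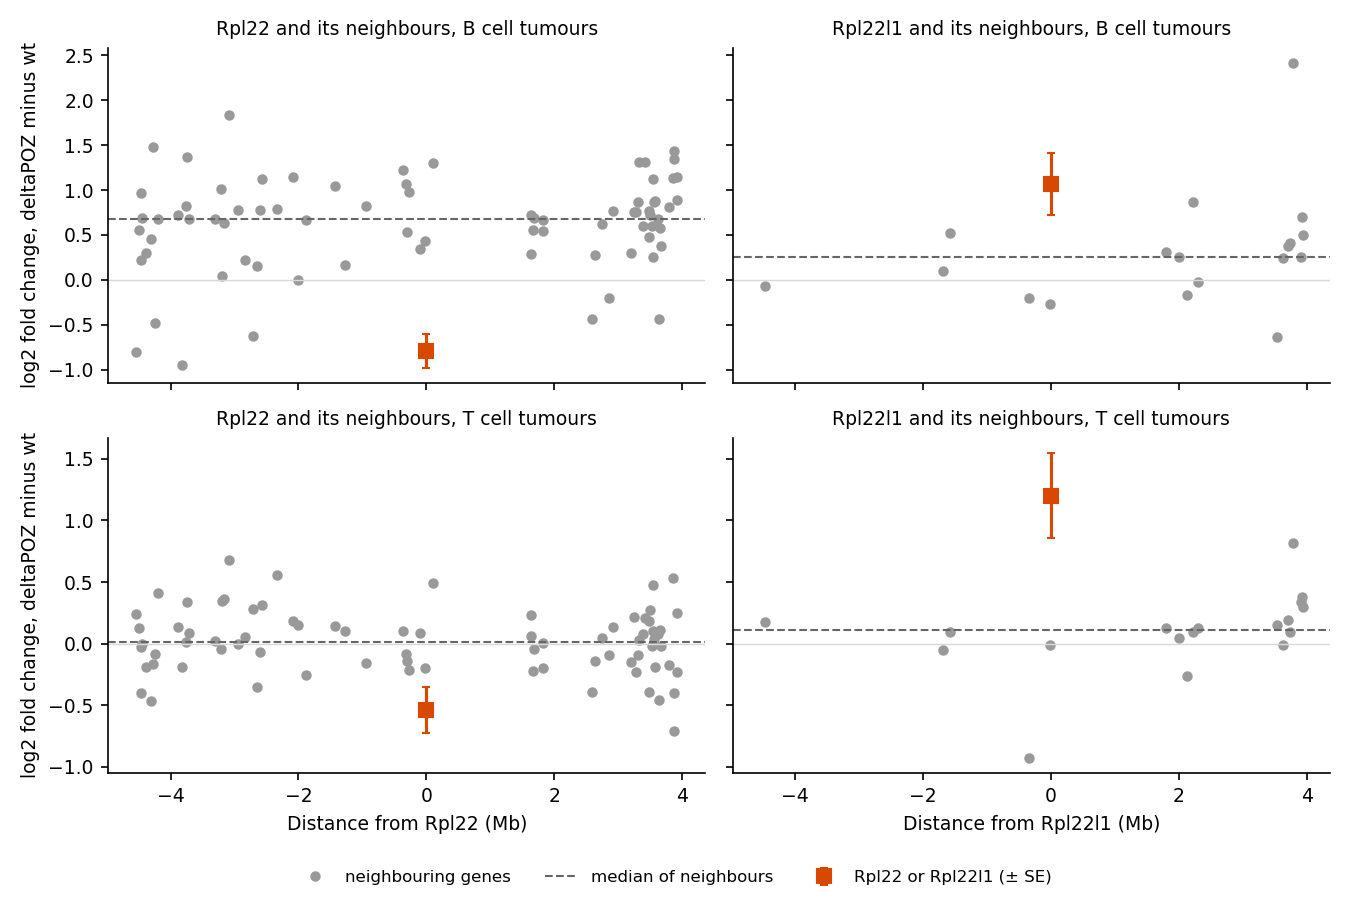
log2 fold change, deltaPOZ minus wt, of Rpl22 (left) and Rpl22l1 (right) with their neighbours within 5 Mb, against the distance from the gene in Mb, in B (top) and T (bottom); squares are the members with their SE, grey points the 76 and 18 neighbours, dashed lines the medians of the neighbours. Rpl22 lies 1.47 below its neighbours' median in B and 0.56 below it in T, and Rpl22l1 lies 0.82 and 1.09 above.

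Between lineages both genes were lower in T tumours than in B tumours. The log2 difference, T minus B over both genotypes, was -0.45 for Rpl22 (SE 0.13, edgeR adjusted p = 0.0360) and -0.93 for Rpl22l1 (SE 0.24, edgeR adjusted p = 0.0259), lower in T within each genotype by group means. In this contrast edgeR called 5801 of 16456 genes (35.3%), of which 2625 were lower in T (16.0%), so 2 called genes of 2 stand against a high background. All 80 ribosomal protein genes were lower in T, 66 of them called, with a median of -0.64. Scaled to the ribosomal protein genes in place of all genes, which called 44.1% of genes, Rpl22 stood at 0.17 (edgeR adjusted p = 0.417) and Rpl22l1 at -0.29 (edgeR adjusted p = 0.307). Both calls were also lost when T wt 1, T deltaPOZ 1 or T deltaPOZ 2 was left out, that of Rpl22 without B wt 1 or B deltaPOZ 2, and that of Rpl22l1 without B wt 2 or T wt 2. The deposited names give B and T libraries different tags, with no explanation, so lineage and whatever these stand for cannot be told apart. Erythroid markers were far higher in T (3064 to 15897 CPM against 3.71 to 193), and their part in the result was not tested. In such bulk samples fewer cells of a type and less RNA per cell cannot be told apart. The ratio of the paralogs was 0.737 times as high in T as in B (exact permutation p = 0.222, 0.333 adjusted over 4 comparisons).

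Among genes tied to Rpl22 by earlier work, Lin28b stood out by its size in 1 group. It codes for an RNA-binding protein that blocks maturation of let-7 microRNAs. Its level was 0.475 and 0.400 CPM in wt B tumours, against 143 and 5.02 CPM in deltaPOZ ones. In T it was at 0.0186 and 0 CPM in wt, where 0 allows up to 0.0523 CPM, and at 0.0183 and 0.282 CPM in deltaPOZ. Both B deltaPOZ libraries were above all others. The higher of them, B deltaPOZ 1, also had the most Rpl22l1 and the smallest share of Rpl22 among ribosomal protein counts. In CPM, however, Rpl22 was lower in T deltaPOZ 2 and T deltaPOZ 1 (319 and 341) than in B deltaPOZ 1 (389). Lin28b stood at 0.282 and 0.0183 CPM in those 2 T libraries. A link between the levels of these genes was not tested. The log2 fold change of Lin28b in B was 7.40 (SE 1.75, edgeR adjusted p = 0.252) and 3.57 without B deltaPOZ 1. DESeq2 called Lin28b in B (DESeq2 adjusted p = 0.00294), where DESeq2 called 598 of 15314 genes (3.90%).

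Of the 14 genes on this list 13 were tested, and edgeR called 0 in B, T or the average. Unadjusted p was under 0.05 for 2, 1 and 1, against 12.1, 2.65 and 8.90% of all tested genes. DESeq2 called Lin28b alone, in B and in the average, where it called 3.90 and 2.07% of all genes, and limma-voom called 0. In the average 4 were higher and 9 lower, with a median of -0.09, and without B wt 2, T wt 1 and T deltaPOZ 2 the counts were 6 and 7 and the median -0.04. Trp53, the gene of p53, was counted at 56.4 and 81.8 CPM in wt B tumours against 67.0 and 28.5 in deltaPOZ ones, and at 67.2 and 85.3 in wt T tumours against 109 and 89.6 in deltaPOZ ones. These groups overlapped in B, and in T the log2 fold change was 0.38 (SE 0.41, edgeR adjusted p = 1). Mdm4, an inhibitor of p53, was at 286 and 284 CPM in wt T tumours against 185 and 187 in deltaPOZ ones (-0.61, SE 0.19, edgeR adjusted p = 1), but in B at 264 and 286 against 251 and 340. Eif2ak3, a kinase of the stress response to unfolded proteins, gave -0.93 in B and -0.12 in T.

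Targets of p53 gave no direction that held. Of 24 tested, 7 were higher and 17 lower in the average, with a median of -0.28, but without B wt 2, T wt 1 and T deltaPOZ 2 the counts were 12 and 11 of 23 and the median 0.01. In B 6 were higher and 18 lower (median -0.53), and in T 10 and 14 (median -0.02). Of all tested genes 48.1% were higher in B and 49.8% in T. edgeR called 0 in B, T or the average. Unadjusted p was under 0.05 for 4, 0 and 1, against 12.1, 2.65 and 8.90% of all tested genes. limma-voom called 0. DESeq2 called 1 of 23 in B, Phlda3, which was lower, where DESeq2 called 3.90% of all genes. Smallest in p were Fas, a death receptor gene (-1.62, SE 0.64), Eda2r, Sesn2, Btg2, Xpc and Bbc3. Sesn2 and Xpc were the 2 of these that were higher in deltaPOZ, in B (0.99 and 0.44) and not in T (-0.04 and -0.01). Fas was higher in B wt 2 (2.42 CPM) than in any further B library (0.342 to 0.702), and B wt 2 is the library with the high neutrophil and macrophage sum, whose part in these values was not tested.

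Among the listed Miz1 targets more were lower than higher in deltaPOZ, by a margin that depended on the libraries used. Of 12 tested, Rpl22 included, 10 were lower and 2 higher in deltaPOZ in the average, with a median of -0.33 and unadjusted p under 0.05 for 6. Over all 16456 genes tested 49.8% were higher in the average and 8.90% had an unadjusted p under 0.05. Without the same 3 libraries 7 were lower and 5 higher (median -0.20). The list came from earlier work on this factor and was kept with results of these data in view, so these counts carry no test. Vamp4, a vesicle fusion gene, was at 28.4 and 36.9 CPM in wt B tumours against 12.2 and 6.62 in deltaPOZ ones, and at 27.6 and 28.9 in wt T tumours against 14.4 and 12.7 in deltaPOZ ones (-1.43 in the average, SE 0.24, edgeR adjusted p = 0.278). Exoc2, a gene of the exocyst, gave -0.92 (SE 0.18, edgeR adjusted p = 0.319) and Ambra1, an autophagy gene, -0.87 (SE 0.21, edgeR adjusted p = 0.411). edgeR called 0 of the 12 in B, T or the average, and limma-voom 0. DESeq2 gave 11 of them an adjusted p in the average and called Rpl22, Vamp4 and Exoc2, all lower, against 2.07% of all genes. In B DESeq2 called Vamp4, which was lower, and Cdkn1c, which was higher, against 3.90% of all genes. Zbtb17 itself gave -0.07 in B and -0.25 in T (edgeR adjusted p = 0.926 and 1).

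Genes whose pattern over the 8 libraries was most like that of each member were found by Pearson's r of log2 CPM after the lineage mean was taken out, over 9012 genes with a mean of at least 10 CPM. For Rpl22 they were Spag5 (r = 0.987), Tbc1d10b (0.974), Slc22a5 (0.971) and Mettl25 (0.965). For Rpl22l1 they were Magoh (0.968), Jade1 (0.960), Ccnc (0.956), Thyn1 (0.952) and Ccnd1 (0.946), of which Ccnd1 codes for cyclin D1 and Magoh for a part of the exon junction complex. The 4 genes named for Rpl22 were lower in deltaPOZ in the average (-0.28 to -0.84) and the 5 named for Rpl22l1 higher (0.30 to 0.55). These directions follow largely from the choice of genes by likeness to a member. Rpl22 and Rpl22l1 had an r of -0.864 with each other, and 71 of the 9012 genes had a lower r with Rpl22. These values compare genes counted in the same 8 libraries, with each library's depth, scaling and genotype common to all genes, and carry no test.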

How the data were processed

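Per the submitters' processing notes, TopHat2 2.0.10, SAMtools, HTSeq and DESeq were used, on the builds mm10 and GRCm38. Per the labels, libraries were made with a stranded mRNA kit. Not given in the sources used here: annotation release, strand setting, rule for overlaps. The deposited values are raw counts per gene made by the authors. No-feature and ambiguous counts (30.4 to 39.3% and 0.471 to 0.554%) were left out.

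Symbols came from GENCODE M21, which held 40340 of 41214 identifiers. Genes passing filterByExpr (16456 of 27639 with a count) were scaled by trimmed mean of M values (factors 0.929 to 1.087) and fitted in edgeR 4.0.16 (glmQLFit, glmQLFTest) with 1 mean per group and 4 residual degrees of freedom. Benjamini-Hochberg adjustment covered all tested genes (threshold 0.05). The SE is the fold change divided by the square root of F. Alternatives used DESeq2 1.42.0 and limma 3.58.1 in R 4.3.3. Sequences were compared with BLAST 2.17.0 and Biopython 1.88, and tests and figures used Python 3.11.15, SciPy 1.17.1 and matplotlib 3.10.9. Counts simulated with known fold changes were used to check the fit. Intervals for a count of 0 use 3 counts and cover counting error only. The p values of edgeR set a fold change against a spread between mice that is pooled over the 4 groups and drawn in part from other genes. The exact permutation p values count arrangements of labels.

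Members, lists and the rule for named genes were chosen with earlier results of these data known. Named are the pair, Zbtb17, genes with Rpl22 symbols, up to 4 ribosomal protein genes by p plus the extremes, paralogs above 1 CPM, up to 6 linked genes and 6 p53 targets by p, Trp53, Lin28b, up to 3 Miz1 targets, the nearest genes and the 5 most alike, of which 1 is not reported here. Xist, Gm15421, Gm33051, Phlda3, Cdkn1c, Rpl3l, Rps4l and the genes after which the 3 paralogs are named were named after their values were seen.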

Additional observations from a re-analysis of the deposited data

How the results depend on the processing

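Directions in B, in T and in their average held for both members and for the ratio under all alternatives run: median-of-ratios factors, no filter, a filter on a total of 10 counts, scaling to ribosomal protein genes, each lineage alone, an additive model, pseudogene counts added, limma-voom, DESeq2, each library left out, and, as a choice made after seeing the data, T deltaPOZ 2, T wt 1 and B wt 2 left out together. For the ratio these were 2 CPM added, pseudogene counts added and the left-out libraries. Without the filter edgeR called Rpl22 (-0.79) and Rpl22l1 (1.07) in B, Rpl22l1 in T (1.20) and both in the average (-0.66 and 1.14), and DESeq2 called both in the average (-0.66 and 1.13). Counts of called genes without the filter were 1324 in B, 254 in T, 886 in the average and 784 for the difference, with DESeq2 598, 57, 295 and 226, and with limma-voom 6 in B. Without the filter the prior degrees of freedom were infinite, against 2.86 with it.

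Leaving out each library, the rank of Rpl22 from the lowest in B ran from 1 to 2, the log2 ratio in B from 1.17 to 2.38 and its difference between lineages from -0.65 to 0.56 (-0.57 without the 3 libraries). The difference for Rpl22l1 ran from -0.30 to 0.69 and was -0.37 without the 3 libraries. T minus B ran from -0.54 to -0.38 for Rpl22 and from -1.15 to -0.65 for Rpl22l1. The call was lost for both without the 3 libraries (-0.45 and -0.91) and with scaling to ribosomal protein genes (0.17 and -0.29). The cause was not tested, beyond the smaller number of libraries.

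No paired analysis was possible because the labels give no replicate numbers, and each library is a different mouse. With 2 libraries a group, number and not depth limits precision: the lowest count of a member in a library was 4405 (Rpl22l1 in T wt 1).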
